A study of Mus musculus with 6 samples.

Results

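The skeletal muscle genes described here were 34 genes of the contractile apparatus, calcium handling, energy supply and lineage control of muscle fibres, followed in sorted cementoblasts and osteoblasts of the mouse. Every probe whose symbol in the platform's annotation was one of the 34 was taken, which gave 44 of 25697 probes and 31 genes of 16593 with a symbol. Myh2, Neb and Cacna1s were not analysed here. The list was drawn up with the signals of these arrays known, so the members' levels are a description and none of them is a test of the groups.

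The cementoblast samples held cells of extracted molars and the osteoblast samples cells of calvaria, the flat bones of the skull. All mice were C57Bl6/J of mixed gender carrying OC-GFP, in which cells that express osteocalcin fluoresce green. Both groups were the GFP-positive cells of a sort, released by trypsin and collagenase, and from calvaria the cells of the first digestion were thrown away. Cementoblast replicates 1, 2 and 3 pooled 7, 10 and 6 mice aged 6 to 7, 5 to 6 and 6 to 7 weeks. Osteoblast replicates 1, 2 and 3 pooled 6 mice each, aged 6, 5 to 6 and 6 to 7 weeks. The gate selects on the reporter alone, the p-values measure the spread between 3 pools per group, and a bulk array cannot tell fewer cells of a type from less RNA per cell. Cementoblast replicates detected 9791, 10059 and 10040 probes (detection p under 0.05), against 8480, 13347 and 12922 for osteoblast replicates 1, 2 and 3. A gene is shown by its brightest probe, and detection refers to that probe unless another is named. Of all genes with a symbol, 67.2% were detected on at least 1 array, against 24 of the 31 members. The lowest normalized signal that counted as detected was 4.80, 4.75 and 4.75 on the cementoblast arrays, and 5.11, 4.37 and 4.40 on the osteoblast arrays. Genes of mineralising cells were detected in every sample: of 9 such genes, cementoblast arrays detected 8, 8 and 9 and osteoblast arrays 9, 9 and 8. Both labelled cell types share them, but their levels can differ. Col1a1, the gene of the main bone collagen, was between 13.90 and 13.98 in cementoblasts and between 13.87 and 14.07 in osteoblasts (log2 signal). Before normalization its bead signals were 5489.2, 6225.6 and 14103.1 in cementoblasts, against 23844.2, 25612.2 and 20857.7 in osteoblasts. Col1a2 was the only 1 of the 9 with every cementoblast array below every osteoblast array, as in 5.26% of all genes. It was at 10.87, 10.61 and 12.46 in cementoblasts, against 13.11, 12.60 and 12.66 in osteoblasts.

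A muscle fibre contracts when calcium released from its internal store lets myosin filaments pull on actin filaments within repeating units called sarcomeres. Fast and slow fibres use different isoforms of the same parts, so myosin light chains, troponins and calcium pumps tell the fibre types apart. Skeletal actin and much of the Z-disc are shared, although some Z-disc proteins, such as Actn3, belong to fast fibres. In the head, temporal muscle attaches to the skull and the chewing muscles act on the jaw that carries the molars. Osteoblasts and cementoblasts are mesenchymal cells that are not known for sarcomeres.

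Most fast-fibre genes were detected on osteoblast replicates 2 and 3, were faint or at background on osteoblast replicate 1 (Actn3 was an exception), and were mostly at background in cementoblasts. Of the 12 fast-fibre genes with a probe, cementoblast replicates 1, 2 and 3 detected 1, 3 and 0, and osteoblast replicates 1, 2 and 3 detected 2, 10 and 8. Of all 31 members, cementoblast arrays detected 4, 8 and 3 and osteoblast arrays 7, 21 and 17. Over all genes the shares detected were 43.8%, 45.0% and 44.2% in cementoblasts and 38.5%, 55.7% and 53.8% in osteoblasts, so these arrays also differed in how much they detected in general. They differed in brightness as well: the median bead signal was 82.7, 78.5 and 81.7 in cementoblasts, against 81.2, 95.6 and 111.1 in osteoblasts, and the pair of arrays with the fast-fibre signal was the brighter pair. Detection on osteoblast replicates 2 and 3 and nowhere else was seen in 9 of 31 members (29.0%), of which 5 were fast-fibre genes, and in 3.77% of all genes.

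**Figure D1:**
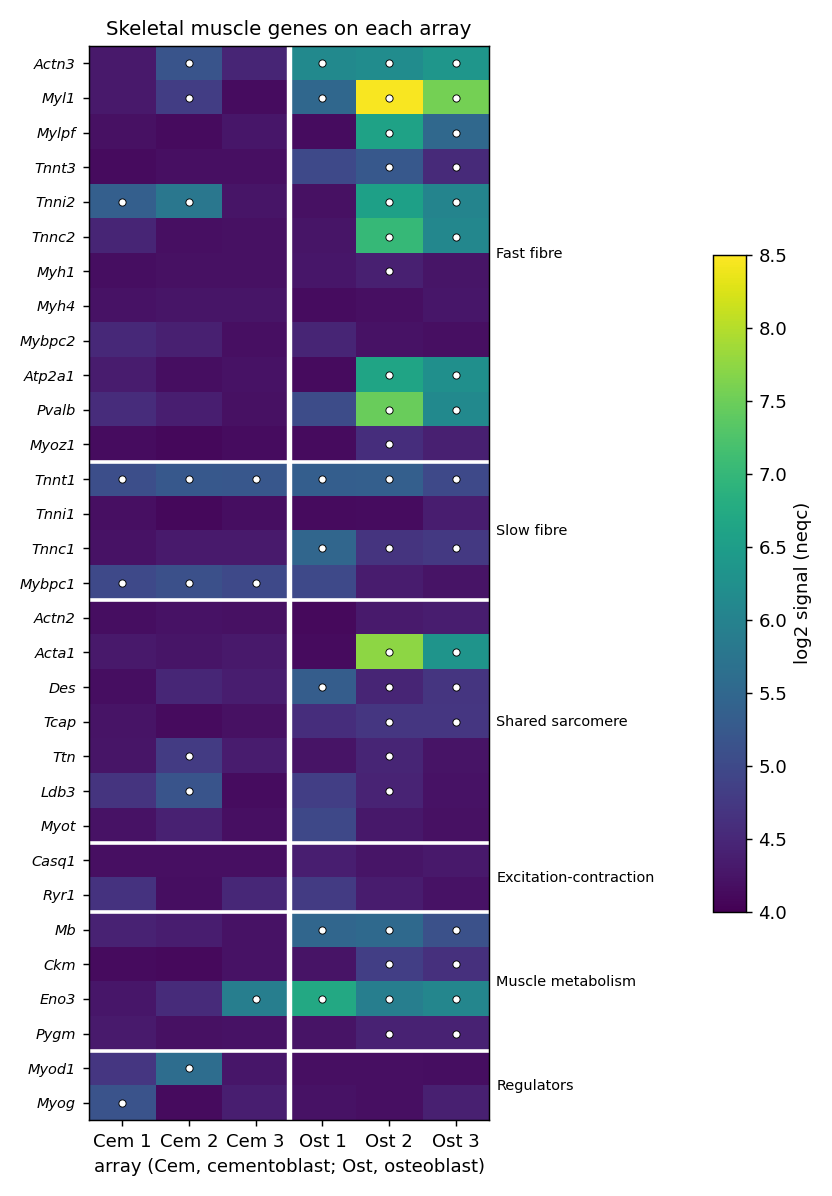
Log2 signal of each of the 31 muscle genes (rows, grouped by role) on the 3 cementoblast (Cem) and 3 osteoblast (Ost) arrays, with a white dot where the probe was detected. Most bright cells lie in the fast-fibre rows and in Acta1 on osteoblast replicates 2 and 3, and 21 and 17 members carry a dot there.

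The myosin light chains came first among the fast-fibre parts. Myl1, the essential light chain of fast fibres, had log2 signals of 4.31, 4.81 and 4.15 on cementoblast replicates 1, 2 and 3, against 5.51, 8.46 and 7.56 on osteoblast replicates 1, 2 and 3. The groups did not overlap, but osteoblast replicate 1 lay far nearer to the cementoblasts than to its own group, and 1 cementoblast array detected the gene. Before normalization the bead signals of Myl1 were 81.7, 80.5 and 76.0 in cementoblasts, against 85.4, 664.3 and 631.9 in osteoblasts. Its other probe was detected on no array. Mylpf, the regulatory light chain of fast fibres, stood at 4.21, 4.14 and 4.28 in cementoblasts and at 4.15, 6.59 and 5.53 in osteoblasts. Here osteoblast replicate 1 lay inside the cementoblast range, and the gene was at least 1.57-fold lower in cementoblasts, where no array detected it. Its mean difference of -1.21 was -0.63 without osteoblast replicate 2 and -1.85 without osteoblast replicate 1. The bounds given here set the osteoblast mean over all 3 arrays, detected or not, against the edge of detection or the gene's own signal on each cementoblast array, whichever was higher.

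Among the fast troponin subunits Tnnc2 showed the split between the osteoblast pools most plainly. Tnnc2, the calcium sensor of the fast thin filament, had log2 signals of 4.46, 4.19 and 4.19 in cementoblasts, against 4.25, 7.01 and 6.08 in osteoblasts. It was detected on osteoblast replicates 2 and 3 alone and was at least 2.02-fold lower in cementoblasts, and its mean difference of -1.50 was -0.89 without osteoblast replicate 2 and -2.26 without osteoblast replicate 1. Tnnt3, the subunit that binds tropomyosin, was at 4.13, 4.18 and 4.19 in cementoblasts and at 4.99, 5.25 and 4.54 in osteoblasts, and the signal of 4.99 on osteoblast replicate 1 lay under that array's edge of detection. Tnni2, the inhibitory subunit, went against a plain division by tissue. Its signals were 5.35, 5.79 and 4.26 in cementoblasts, against 4.20, 6.56 and 6.02 in osteoblasts. Cementoblast replicates 1 and 2 and osteoblast replicates 2 and 3 detected it, the groups overlapped, and its mean difference of -0.46 became 0.027 without osteoblast replicate 2.

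Genes of fast calcium cycling followed the light chains. Pvalb, the calcium buffer parvalbumin, was at 4.56, 4.37 and 4.20 in cementoblasts, against 5.04, 7.48 and 6.13 in osteoblasts, and was at least 2.73-fold lower in cementoblasts, with 2 of 3 osteoblast arrays detecting it. Atp2a1, the calcium pump of the fast fibre's store, stood at 4.35, 4.17 and 4.22 in cementoblasts and at 4.13, 6.62 and 6.24 in osteoblasts, a bound of at least 1.86-fold lower in cementoblasts. Without osteoblast replicate 2 the mean difference was -1.21 for Pvalb and -0.93 for Atp2a1, against -1.84 and -1.42 with all arrays, and that of Atp2a1 was -2.18 without osteoblast replicate 1. In contrast to it, Atp2a2, a pump of slow fibres, heart and most other cells, was detected on all 6 arrays, with signals from 7.46 to 7.94 in cementoblasts and from 7.27 to 8.15 in osteoblasts.

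Actn3, the Z-disc cross-linker of fast fibres, had a pattern of its own in the normalized signals of its brightest probe. Its signals were 4.31, 5.16 and 4.47 in cementoblasts, against 6.14, 6.19 and 6.37 in osteoblasts. All 3 osteoblast arrays detected it at like normalized levels, osteoblast replicate 1 included, unlike Myl1 or Tnnc2. Before normalization its bead signals were 81.7, 82.0 and 82.3 in cementoblasts, against 90.1, 184.9 and 310.2 in osteoblasts. Osteoblast replicate 1 was thus well below the other osteoblast arrays on that scale. Actn3 averaged 4.65 ± 0.45 over the 3 cementoblast pools and 6.24 ± 0.12 over the 3 osteoblast pools (mean ± SD), and the difference with any 1 array left out ran from -1.85 to -1.42. The other Actn3 probes, however, were each detected on osteoblast replicates 2 and 3 only. The brighter of them was at 5.49 and 5.52 there, and at 4.17 on osteoblast replicate 1. The fainter was at 4.37 and 4.59, and at 4.16 on osteoblast replicate 1. The probes of this gene thus disagree about osteoblast replicate 1.

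The remaining fast-fibre genes were at or near background. Myoz1, a Z-disc protein, was detected on osteoblast replicate 2 only, at 4.58, and so was Myh1, a fast myosin heavy chain, at 4.40. Both signals lie below the edge of detection of every cementoblast array. Myh4, the fastest heavy chain, and Mybpc2, fast myosin-binding protein C, were detected on no array. The fast heavy chains are close relatives, so a probe may not part them cleanly.

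The start regions of the 4 members with the highest signal on any array are printed because these members shared the split between the osteoblast pools. Each is the 250 bases before the annotated start, 5′ to 3′ on the gene's own strand, from RefSeq (GRCm38.p6), with the E-box CANNTG, bound by MyoD-family factors among others, and the TATA box TATAAA in capitals. Of the 31 member genes with a probe, 24 had an entry, with 29 start regions.
Myl1: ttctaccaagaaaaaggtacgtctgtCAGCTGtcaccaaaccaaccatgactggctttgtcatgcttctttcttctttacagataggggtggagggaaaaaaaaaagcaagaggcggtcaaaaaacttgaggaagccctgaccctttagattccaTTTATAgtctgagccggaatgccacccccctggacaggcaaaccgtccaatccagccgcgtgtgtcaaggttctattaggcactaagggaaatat
Acta1: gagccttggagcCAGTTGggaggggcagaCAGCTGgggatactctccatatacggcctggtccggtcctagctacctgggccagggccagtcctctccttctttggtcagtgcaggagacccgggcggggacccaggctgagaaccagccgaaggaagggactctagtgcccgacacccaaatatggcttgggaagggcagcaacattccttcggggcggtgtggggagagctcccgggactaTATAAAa
Pvalb: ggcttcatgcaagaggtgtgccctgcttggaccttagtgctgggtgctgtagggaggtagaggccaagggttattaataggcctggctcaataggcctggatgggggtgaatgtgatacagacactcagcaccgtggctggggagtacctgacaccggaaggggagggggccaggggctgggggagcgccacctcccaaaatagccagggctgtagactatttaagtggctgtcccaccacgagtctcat
Tnnc2: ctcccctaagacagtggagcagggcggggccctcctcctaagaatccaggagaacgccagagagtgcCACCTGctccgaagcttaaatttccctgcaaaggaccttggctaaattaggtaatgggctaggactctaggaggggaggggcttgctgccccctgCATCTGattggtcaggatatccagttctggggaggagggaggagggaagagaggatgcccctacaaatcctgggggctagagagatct
The Myl1 region lies at chr1:66945057-66945306, that of Acta1 at chr8:123894776-123895025, that of Pvalb at chr15:78206401-78206650 and that of Tnnc2 at chr2:164779735-164779984, all on the minus strand. Acta1 and Tnnc2 held 2 E-boxes each, Myl1 held 1 and the printed Pvalb region none, while the region of a second annotated Pvalb start held 1. A match to TATAAA was found in Acta1, 7 bases before the annotated start, and in Myl1 on the other strand, 95 bases before it. With both strands searched, an E-box stood in 82.8% of the 29 member regions and in 66.2% of all 32851 regions of that length. The shares for TATAAA were 17.2% and 12.4%. For a loose form of the CArG box of muscle promoters (a pair of C and a pair of G with any 6 bases between), which is not capitalised and may overlap the other motifs, they were 89.7% and 67.1%. These letters are matches and not sites of binding.

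**Figure D2:**
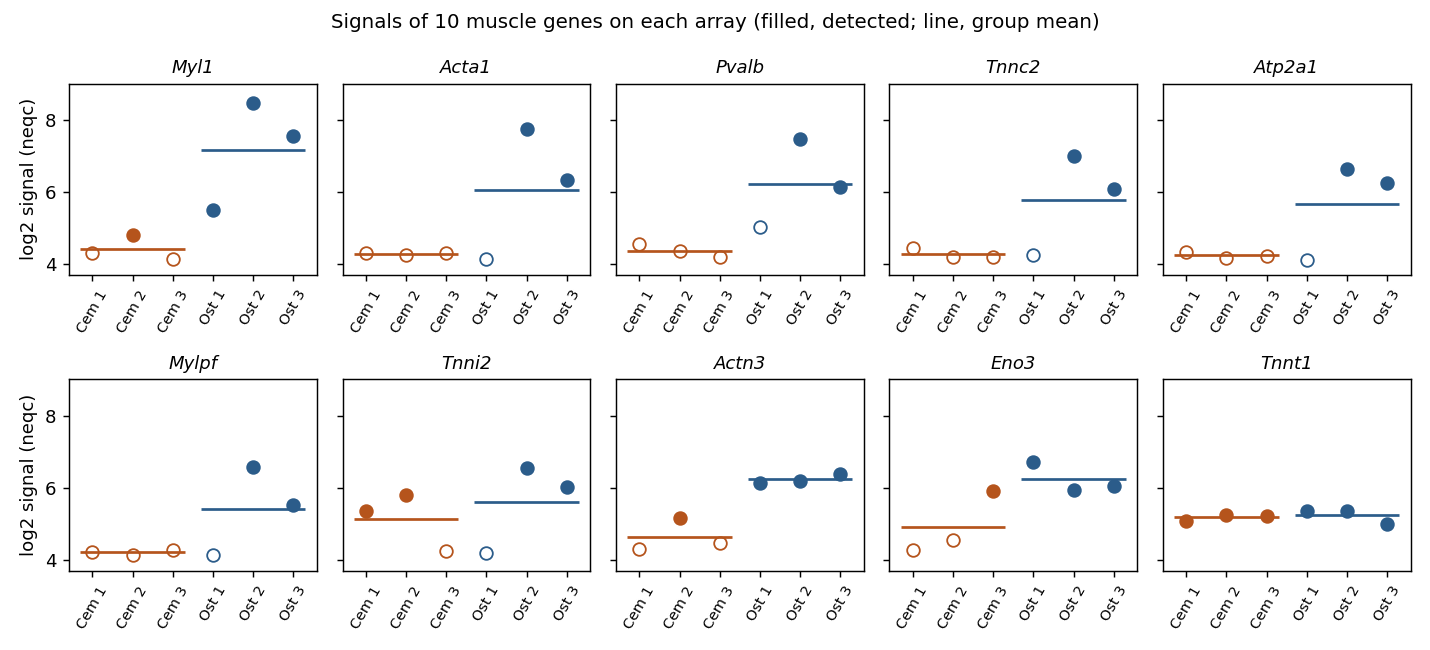
Log2 signal of Tnnt1 and of the 9 members with the highest signal on any array, on each cementoblast (Cem) and osteoblast (Ost) array, with filled points where detected and a line at each group mean. Osteoblast replicates 2 and 3 stand above osteoblast replicate 1 in 8 of the panels, by far less in Actn3 (6.19 and 6.37 against 6.14) than in the other 7. On this normalized scale they do not in Eno3 and Tnnt1, but in bead signal before normalization they do.

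After normalization slow-fibre genes did not share the pattern. On every array 2 of the 4 slow-fibre genes were detected, Tnnt1 and Mybpc1 in cementoblasts and Tnnt1 and Tnnc1 in osteoblasts. Tnnt1, slow troponin T, was the only member detected on all 6 arrays, at 5.08, 5.24 and 5.22 in cementoblasts and 5.35, 5.36 and 5.00 in osteoblasts. The groups overlapped, with a mean difference of -0.059. The bead signals of Tnnt1 before normalization were 86.2, 82.4 and 87.9 in cementoblasts, against 84.7, 131.2 and 147.7 in osteoblasts. Tnnc1, the troponin C of slow fibres and heart, was at 4.23, 4.33 and 4.32 in cementoblasts, where no array detected it, and at 5.48, 4.68 and 4.74 in osteoblasts. After normalization osteoblast replicate 1 was the highest array for Tnnc1, and the lowest osteoblast array for Tnnc2. Before normalization osteoblast replicate 1 was the lowest osteoblast array for Tnnc1 too. The bead signals of Tnnc1 were 85.3, 103.7 and 130.3 on osteoblast replicates 1, 2 and 3. Mybpc1, slow myosin-binding protein C, was the reverse of the fast genes by group: all 3 cementoblast arrays detected it, at 4.99, 5.10 and 5.00, and no osteoblast array did, at 4.99, 4.35 and 4.25. On the normalized scale it was at least 1.33-fold higher in cementoblasts, but 4.99 stood on both sides, and its other 2 probes did not show this. The bead signals of Mybpc1 before normalization were 85.8, 81.7 and 85.8 in cementoblasts, against 83.4, 94.1 and 101.6 in osteoblasts. On that scale osteoblast replicates 2 and 3 were thus above every cementoblast array. Tnni1, slow troponin I, was detected nowhere.

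Parts shared by both fibre types were led by Acta1, skeletal muscle actin. Its signals were 4.30, 4.25 and 4.30 in cementoblasts, against 4.13, 7.73 and 6.33 in osteoblasts, and its bead signals before normalization were 81.6, 76.6 and 80.7, against 75.04, 421.2 and 301.9 in osteoblasts. Osteoblast replicate 1 lay below every cementoblast array, and the gene was at least 2.46-fold lower in cementoblasts. Its mean difference of -1.78 was -0.94 without osteoblast replicate 2 and -2.75 without osteoblast replicate 1. Acta2, the closely related smooth muscle actin, was detected on all 6 arrays, at 10.74, 11.16 and 6.51 in cementoblasts and 11.41, 11.89 and 11.69 in osteoblasts. On osteoblast replicate 1 the Acta2 probe was thus bright while the Acta1 probe was not detected, although its bead signal for Acta2 was 1018.2 there, against 6981.1 and 7964.1 on osteoblast replicates 2 and 3.

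Other shared sarcomere genes gave little signal. Tcap, the cap of titin, was at 4.23, 4.14 and 4.20 in cementoblasts and 4.59, 4.71 and 4.72 in osteoblasts, detected on osteoblast replicates 2 and 3 only. Its detected signals lie below the edge of detection of every cementoblast array. Des, the intermediate filament desmin, which smooth muscle also makes, was detected on all 3 osteoblast arrays, at 5.32, 4.46 and 4.69. No cementoblast array detected it, at 4.17, 4.47 and 4.36. The 4.47 on cementoblast replicate 2 lay above osteoblast replicate 2, where the edge of detection was lower. As for Tnnc1, osteoblast replicate 1 was the highest array after normalization only. The bead signals of Des were 84.6, 97.2 and 126.9 on osteoblast replicates 1, 2 and 3. Ttn, the giant spring titin, and Ldb3, a Z-disc adaptor, were detected on cementoblast replicate 2, at 4.78 and 5.17, and on osteoblast replicate 2, at 4.47 and 4.45. Actn2, the main sarcomeric alpha-actinin, and Myot, another Z-disc protein, were detected on no array. The same held for Casq1, the calcium store protein calsequestrin. The shown probe of Ryr1, the calcium release channel, was detected on no array, while 1 of its other probes was detected on osteoblast replicate 2, at 4.54.

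After normalization every cementoblast array lay below every osteoblast array in 3 of the 4 genes of muscle metabolism, as in 5.26% of all genes. Mb, the oxygen carrier myoglobin, was at 4.42, 4.37 and 4.21 in cementoblasts, where no array detected it, against 5.48, 5.53 and 5.11 in osteoblasts, where all did. It was at least 1.52-fold lower in cementoblasts. Eno3, the muscle enolase of glycolysis, was at 4.27, 4.55 and 5.92 in cementoblasts, against 6.71, 5.93 and 6.06 in osteoblasts, with cementoblast replicate 3 close below the lowest osteoblast array. Before normalization its bead signals were 81.1, 79.4 and 99.0 in cementoblasts, against 97.9, 165.5 and 259.4 in osteoblasts. On that scale osteoblast replicate 1 was the lowest osteoblast array, and cementoblast replicate 3 lay just above it. Ckm, muscle creatine kinase, was detected on osteoblast replicates 2 and 3 only, at 4.83 and 4.63, beside 4.24 on osteoblast replicate 1 and 4.13, 4.12 and 4.22 in cementoblasts. Pygm, glycogen phosphorylase of muscle, was detected on the same pair of arrays, at 4.43 and 4.44, barely above their edge of detection. These signals lie below the edge of detection of every cementoblast array. A second Mb probe was detected on osteoblast replicates 2 and 3 only.

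The myogenic regulators were detected in cementoblasts and not in osteoblasts, each on a single array and close to background. Myod1, a master regulator of muscle commitment, had signals of 4.71, 5.61 and 4.27 in cementoblasts, against 4.18, 4.18 and 4.16 in osteoblasts. Myog, which drives terminal differentiation, was at 5.15, 4.14 and 4.38 in cementoblasts and 4.21, 4.18 and 4.40 in osteoblasts. Cementoblast replicate 2 detected Myod1 and cementoblast replicate 1 detected Myog. Their bead signals there were 85.0 and 86.6, against array medians of 78.5 and 82.7. On osteoblast replicates 2 and 3 the bead signals were 87.5 and 96.0 for Myod1 and 87.7 and 110.6 for Myog. The medians of those 2 arrays were 95.6 and 111.1. Neither regulator was detected on the osteoblast arrays that carried the fast-fibre signal, and a second Myog probe was detected nowhere.

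The subgroups are given side by side by their median difference (cementoblast minus osteoblast, over all genes with a probe and with no filter on detection). The median log2 difference was -0.99 for the 12 fast-fibre genes, -0.063 for the 4 slow-fibre genes, -0.22 for the 7 shared sarcomere genes, -0.066 for the 2 calcium release genes, -0.73 for the 4 metabolic genes and 0.49 for the 2 regulators. Over all 31 members it was -0.24, with 24 below 0, and over all genes on the array it was 0.0036. Without osteoblast replicate 2 the fast-fibre median was -0.61, and with osteoblast replicate 1 left out it was -1.39. It was -0.32 without background correction and -0.56 in the values normalized by the submitters. The shared sarcomere median depends on the scale: relative to all genes it was 0.085 when each array was scaled to its 75th percentile, where the fast-fibre median was -1.51. After normalization all cementoblast arrays lay below all osteoblast arrays in 11 of 31 members, and in 5.26% of all genes. The opposite held, also after normalization, for Mybpc1 and Myod1 among the members and for 5.94% of all genes. Among the 11, osteoblast replicate 1 did not detect Tnnt3, Myh1, Pvalb, Tcap, Casq1 or Ckm.

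**Figure D3:**
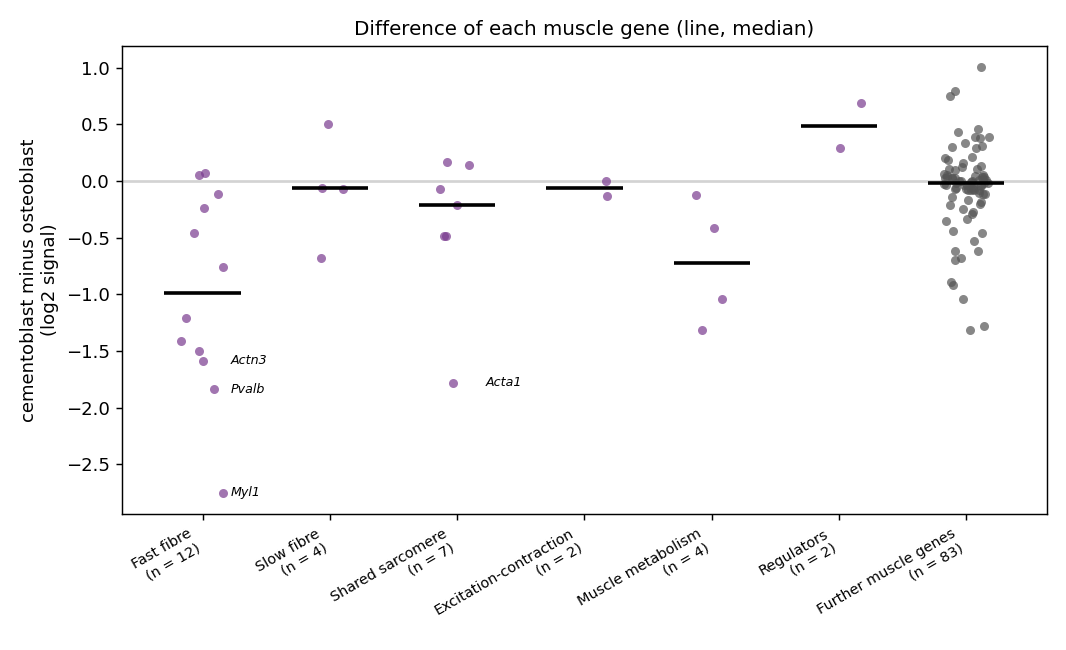
Log2 difference of each gene, cementoblast minus osteoblast, by subgroup, with the median as a black line and Myl1, Acta1, Pvalb and Actn3, furthest below 0, named. The fast-fibre median is -0.99, the slow-fibre median -0.063 and that of the 83 further muscle genes -0.018.

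In the limma fit over all 8111 genes that were detected on at least 3 arrays, 26 genes (0.321%) passed an adjusted p of 0.05, of which 12 were higher (0.148%) and 14 lower (0.173%) in cementoblasts. Of the members 9 entered the fit, and the other 22 were detected on too few arrays. None of the 9 passed, and 5 had an unadjusted p under 0.05, as did 6.92% of all genes tested. The members were chosen with this contrast known, so nothing is read from that count.

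Within the osteoblast group the fast-fibre signal was not equal between the pools that carried it. Of the 8 fast-fibre genes detected on both osteoblast replicates 2 and 3, 7 were higher on replicate 2, with a median gap of 0.81 on the log2 scale. Of the 8394 genes detected on both arrays, 3557 were higher on replicate 2, with a median gap of -0.059. Actn3 was the fast-fibre exception.

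**Figure D4:**
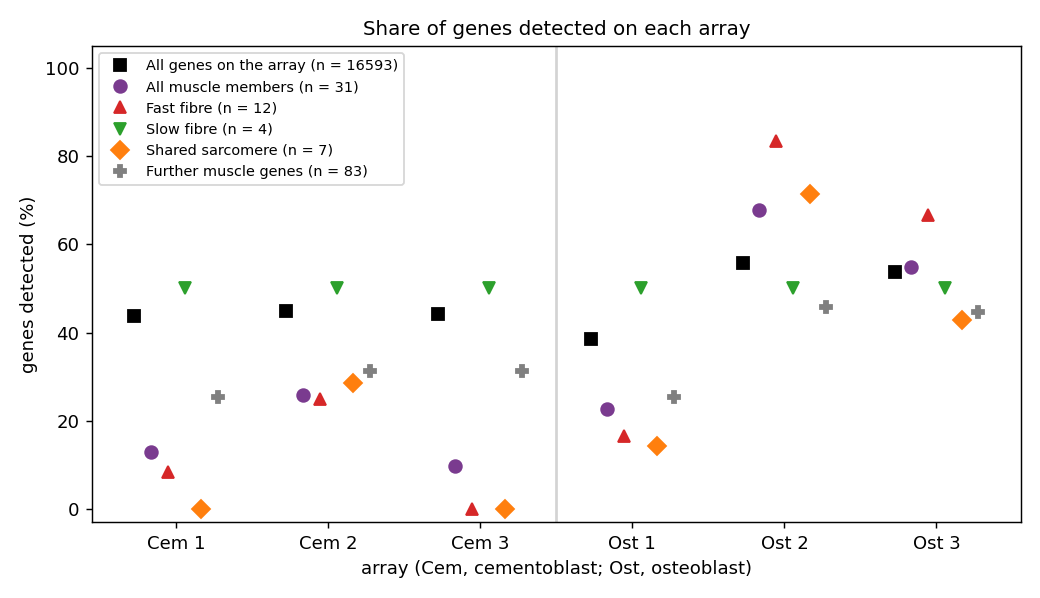
Share of genes detected on each cementoblast (Cem) and osteoblast (Ost) array, in percent, for all genes with a symbol and for the muscle lists. Fast-fibre genes lie below all genes on the 3 cementoblast arrays and osteoblast replicate 1, and above them on osteoblast replicates 2 and 3. Slow-fibre genes stay at 50.0% (2 of 4), but these are Tnnt1 and Mybpc1 in cementoblasts and Tnnt1 and Tnnc1 in osteoblasts.

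A list of 98 further skeletal muscle genes, none of them a member, had 83 genes on the array, and 29 entered the fit. None passed the adjusted p of 0.05 in limma (smallest adjusted p = 0.394), and 3 had an unadjusted p under 0.05, all lower in cementoblasts. Over all genes tested, 6.92% had such a p in either direction and 3.44% were lower with it. The 3 were Cryab, a small heat shock protein, Sgca, a sarcoglycan of the fibre membrane, and Ak1, an adenylate kinase, named after their values were seen. Cryab stood at 6.06, 6.67 and 6.85 in cementoblasts against 7.94, 7.25 and 7.51 in osteoblasts. On this normalized scale osteoblast replicate 1 was again the highest. Before normalization it was the lowest osteoblast array, with bead signals of 134.3, 317.4 and 616.4 on osteoblast replicates 1, 2 and 3. The median difference over the 83 genes was -0.018.

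The 10 further genes with the highest mean signal were Tpm1, Ldha, Mef2c, Tpm3, Tpm2, Atp2a2, Pfkm, Cryab, Hspb6 and Fbxo32, all detected on all 6 arrays and all known from other cells too. Tpm1, a tropomyosin of many contractile and non-contractile cells, was at 11.09, 11.69 and 11.54 in cementoblasts and 11.34, 11.28 and 11.37 in osteoblasts. Mef2c, a partner of MyoD-family factors that bone cells also use, was at 7.93, 7.80 and 9.79 in cementoblasts and 8.91, 9.14 and 9.33 in osteoblasts, with cementoblast replicate 3 the highest array. Detection on osteoblast replicates 2 and 3 alone was seen in 5 of the 83 genes (6.02%), against 3.77% of all genes. They were Tmod4, Tmem38a, Pgam2, Cox6a2 and Cox8b, named after their values were seen. Cox6a2, the heart and muscle form of a cytochrome oxidase subunit, was at 4.71, 4.22 and 4.41 in cementoblasts and 4.14, 5.62 and 4.91 in osteoblasts.

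Genes of muscle stem cells and of embryonic muscle were detected on few arrays. Apart from Mef2c, described above, 2 of the 9 genes of this list with a probe were detected. Myh8, the perinatal myosin heavy chain, was at 4.72, 4.85 and 5.02 in cementoblasts, where replicates 2 and 3 detected it, and at 5.59, 4.30 and 4.40 in osteoblasts, where replicate 1 did. Myf6, a regulator of the MyoD family, was at 4.53, 4.81 and 4.73 in cementoblasts and 4.27, 4.39 and 4.23 in osteoblasts, detected on replicate 2 of each group. Pax7, Pax3 and Myf5, regulators of muscle progenitors, were detected on no array, and neither were Chrng and Chrnd, subunits of the acetylcholine receptor, or Mymk, which fuses myoblasts. Among slow and cardiac parts, Myh7, the slow and cardiac myosin heavy chain, and Actc1, cardiac actin, were detected on no array. Of 8 heart genes with a probe, Myl4 alone was detected on all 6 arrays, and Myh6, Tnni3, Myl7, Ryr2 and Mybpc3 were detected on none. The summed level of the heart list ran from 176.6 to 198.9 in cementoblasts and from 183.4 to 205.8 in osteoblasts.

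Markers of other cells varied across the same arrays. The summed level of the 31 muscle members (linear normalized signal) was 683.6, 741.7 and 663.4 in cementoblasts and 915.3, 1823.9 and 1228.0 in osteoblasts. All 10 smooth muscle genes had a probe, and cementoblast arrays detected 6, 5 and 3 of them and osteoblast arrays 4, 9 and 7. Their summed levels ran from 705.3 to 3137.6 in cementoblasts and from 4038.7 to 5540.5 in osteoblasts, where Acta2 was the brightest on every array. By mean difference 5 of the 10 were lower in cementoblasts and 5 higher. Lmod1 was detected nowhere and Myocd on 1 array. Of 12 neutrophil genes, 11 were detected on every array but osteoblast replicate 1, which detected 9. Their summed levels were 47170.9, 16511.1 and 5057.4 on cementoblast replicates 1, 2 and 3, which detected 1, 3 and 0 fast-fibre genes. On osteoblast replicates 1, 2 and 3, which detected 2, 10 and 8 fast-fibre genes, they were 1419.2, 13609.3 and 11614.4. Mmp8 was detected on no array. Of 12 epithelial genes, cementoblast arrays detected 11, 9 and 2 and osteoblast arrays 2, 3 and 1, with summed levels from 341.4 to 7870.6 in cementoblasts and from 243.8 to 318.2 in osteoblasts, and Amelx was detected nowhere. The 9 endothelial genes had summed levels from 266.4 to 1179.1 in cementoblasts and from 333.3 to 525.6 in osteoblasts, and Kdr was detected nowhere. The part of these cells and of the differing brightness and detection of the arrays in the fast-fibre signal was not tested.

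**Figure D5:**
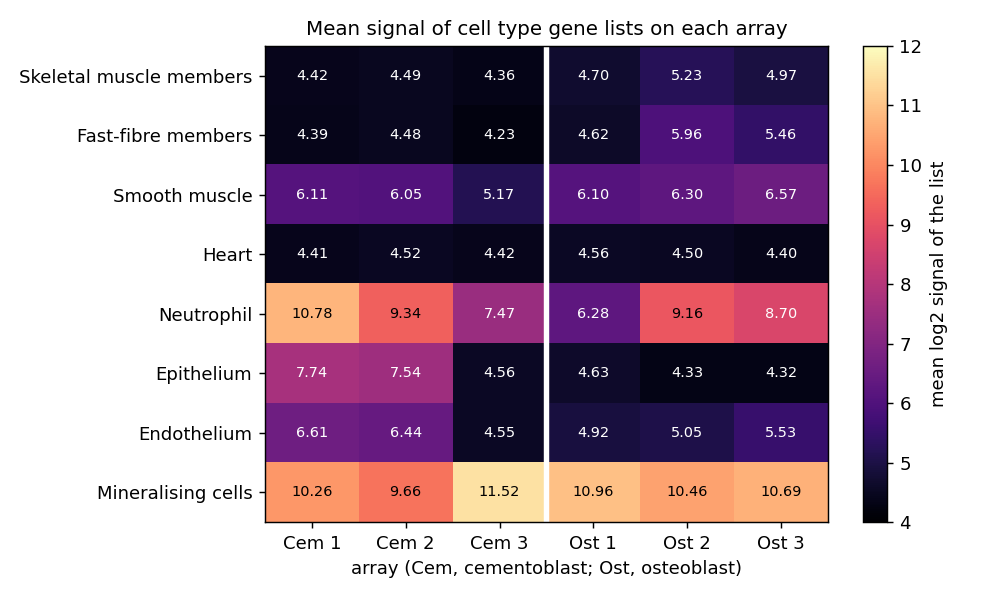
Mean log2 signal of the skeletal muscle members, the fast-fibre members and 6 cell type lists on each cementoblast (Cem) and osteoblast (Ost) array. The fast-fibre row is highest on osteoblast replicates 2 and 3, at 5.96 and 5.46. The neutrophil row is lowest on osteoblast replicate 1, at 6.28, and highest on cementoblast replicate 1, at 10.78.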

How the data were processed

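RNA of 6 pools was measured on Illumina bead arrays. Per the file headers, the deposited non-normalized table holds a bead signal, an intensity on a linear scale, and a detection p-value for 25697 probes. Another deposited table, used as an alternative, gives intensity normalized by the authors. Per the submitters' processing notes they used lumi, with no version or settings named there. The column of replicate 3 of each group was matched by tissue code and replicate number, since the title carries another number.

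Background was corrected and arrays were normalized by quantiles with neqc (limma 3.58.1, R 4.3.3, offset 16), and values are log2. A gene is shown by its probe with the highest mean over all arrays. For the fit, probes detected (p under 0.05) on at least 3 of 6 arrays were kept, and lmFit and eBayes gave cementoblast minus osteoblast with Benjamini-Hochberg adjustment over 8111 genes. The fit was tested on simulated data. Signals near 4 lie at background, and the number of arrays limits the precision. Symbols came from the platform annotation, one of them updated through its gene ID.

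The members and lists were chosen with earlier results of these data known. All members were named, with the further genes that passed or were among the 10 with the highest mean signal, 10 genes most like the members' mean, and markers of other cells. Deviations from the group means correlated over genes at -0.36, 0.36 and 0.09 for replicates 1, 2 and 3 of both groups. Between replicates of unlike number the correlations ran from -0.58 (cementoblast 3 with osteoblast 2) to 0.49 (cementoblast 1 with osteoblast 2). Replicates 2 and 3 also share a title number and an age range across the groups, but the labels do not say what the number marks, so the fit has no block. Protein sequences were not used here.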

Additional observations from a re-analysis of the deposited data

How the results depend on the processing

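The count of 26 genes past limma's adjusted p moved with almost every choice. It was 15 with no background correction, 14 with the submitters' values, 2 with scaling to the 75th percentile, 8 with no detection filter, 6 with detection on all 6 arrays, 74 with the title number as a random block and 199 with array weights. With the replicate number as a block it was 0 (568 genes at an unadjusted p under 0.05), although no label states a pairing. Of the 3 number pairs that of replicate 2 had the highest correlation of deviations (0.36). Cementoblast replicate 1 with osteoblast replicate 2, of unlike number, had a higher one (0.49). With 1 array left out the count of genes past the adjusted p ran from 0 (without cementoblast replicate 2 or osteoblast replicate 3, with 388 and 367 genes at an unadjusted p under 0.05) to 171 (without cementoblast replicate 3). It stayed within 1.5 times with the mean of all probes and with a variance trend. The count of further muscle genes past the adjusted p was 0 under all 16 alternatives, several of which called few or no genes at all, and the count at an unadjusted p under 0.05 ran from 1 to 10.

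The median over all members, -0.24, was -0.12 with no background correction, -0.68 over the 9 members that passed the detection filter and -0.54 as a mean, and it was -0.24 with the replicate number as a block. Scaling to the 75th percentile put it at 0.57, the slow-fibre median at 0.68 and the shared sarcomere median at 0.92, against 0.84 for the median of all genes. The shared sarcomere median was -0.062 with no background correction and ran from -0.36 to -0.15 with 1 array left out. The subgroup medians were added as results after seeing the data. The fast-fibre median of -0.99 was -0.32 without background correction, -0.67 after 75th percentile scaling and -0.56 with the submitters' values, and ran from -1.39 to -0.61 with 1 array left out. Of 24 members detected on any array, all 24 kept their sign with the submitters' values, 15 with 75th percentile scaling and 23 of 24 relative to all genes there, Myh1 being the exception. The cause was not tested. Signals close to background limit all but the brighter members.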

Other observations

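Among 930 genes outside all lists that entered the fit and spanned at least 2 on the log2 scale, the 10 whose signal was most like the mean of the muscle members had Pearson's r from 0.930 to 0.963. This is over 6 arrays that share the split of the osteoblast pools, and it is a description. They were Slc47a1, Nog, Zfhx3, Chad, Cilp2, Ptx3, Gdf10, Kcnab1, Dner and Efna5. Slc47a1, a transporter of organic cations, had the highest r, with signals of 4.95, 4.69 and 4.19 in cementoblasts and 4.91, 8.02 and 6.77 in osteoblasts. Chad, a cartilage matrix protein, was at 5.74, 5.94 and 5.73 in cementoblasts and 7.38, 9.30 and 9.82 in osteoblasts, and Nog, the BMP antagonist noggin, at 4.91, 4.90 and 4.40 against 5.87, 6.52 and 5.90. In these 2 genes osteoblast replicate 1 stood above every cementoblast array. The same held for several members, Myl1, Pvalb and Actn3 among them, but not for Acta1 or Mylpf.

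Chrna1, the alpha subunit of the muscle acetylcholine receptor, was detected on cementoblast replicate 3 only. Its signals were 4.36, 4.21 and 6.26 in cementoblasts and 4.20, 4.19 and 4.20 in osteoblasts, and it is named after its values were seen. That array detected 0 of 12 fast-fibre genes.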
